A study of Mus musculus with 6 samples.

Results

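The 36 genes described here are the endoplasmic reticulum (ER) chaperones, stress sensors, transcription factors and degradation factors of the unfolded protein response, listed by symbol and found among the 27815 genes measured in mouse aorta. All 36 symbols matched an Ensembl gene in the deposited values. The genes fell into 15 ER chaperones and folding enzymes, 4 sensors and their transcription factors, 7 genes on the ATF4 and CHOP side, 8 genes of ER-associated degradation and 2 genes of translocation and the ER membrane. The list uses no measured value, but it was chosen with earlier results of these data known.

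Poly-T selected RNA from whole aorta, with C57BL/6 given as the strain, was sequenced in 6 libraries, 2 for each of 3 groups. The ApoE group carried a deletion of apolipoprotein E (ApoE-/-) and ate chow until 16 months of age, which gives calcified atherosclerotic plaques. In the CKD group the kidneys were removed in stages: both poles of the left kidney at 8 weeks of age and, 1 week later, the whole right kidney. These mice then had 2% phosphate in the diet and 0.45% NaCl in the water for 4 weeks, a model of medial calcification. The Ctrl group was wild type and 8 weeks old, which the age label gives as 2 months. The labels also put the CKD mice at 16 months, which the operation schedule does not allow, so that age is uncertain. ApoE and Ctrl differed in age and genotype together, and these cannot be told apart. CKD and Ctrl differed in the operations, the diet, the water and, by label or schedule, age. ApoE and CKD differed in the Apoe deletion, the operations, the diet, the water and perhaps age. Within each of these comparisons too, the factors cannot be told apart. Nothing in the labels ties a library to a separate animal, and a pooling of 4 samples is mentioned for the small RNA libraries. The p-values therefore measure the spread between libraries, which may be technical.

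The unfolded protein response is the signalling by which a cell matches the folding capacity of its ER to the load of newly made secreted and membrane proteins. The chaperone Hspa5 (BiP) holds the ER membrane sensors inactive: IRE1 (Ern1), which splices Xbp1 mRNA, PERK (Eif2ak3), which slows translation and favours synthesis of ATF4, and ATF6, which is cut to release a transcription factor. ATF6 and spliced XBP1 raise chaperones and degradation factors, while ATF4 raises amino acid metabolism genes and the transcription factor CHOP (Ddit3). In the artery wall, ER stress signalling is a known feature of plaque macrophages and of smooth muscle cells under high phosphate.

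Library depth, read from the steps between low FPKM values, was 14440000 to 16640000 reads. Apoe, the deleted gene, stood at 13.2 and 11.4 FPKM in ApoE libraries, 1410 and 1447 FPKM in CKD libraries and 756 and 627 FPKM in Ctrl libraries, so that it was lowest where the labels give its deletion. Cell type markers moved between the groups. Of 9 smooth muscle markers, 9 were lower in ApoE than in Ctrl, 2 were lower in CKD than in Ctrl and 9 were lower in ApoE than in CKD, with summed levels of 567 to 648 FPKM in ApoE, 3436 to 5954 FPKM in CKD and 7500 to 8370 FPKM in Ctrl. Of 10 macrophage markers, 9 were higher in ApoE than in Ctrl, 3 in CKD than in Ctrl and 7 in ApoE than in CKD, with sums of 6140 to 11122, 660 to 1127 and 302 to 328 FPKM in ApoE, CKD and Ctrl. Over all genes tested, 19.8% were higher and 24.3% lower for ApoE over Ctrl, and 2.23% and 3.21% for CKD over Ctrl. For ApoE over CKD 18.5% were higher and 21.2% lower. The same shares stand beside the marker lists below. Mitochondrially encoded genes took 9.66% and 10.9% of reads in ApoE, 9.99% and 5.70% in CKD and 3.13% and 4.19% in Ctrl. Counts of calls with other scalings, among them 1 without these genes, are given with the main counts. In whole tissue, fewer cells of a type and less RNA per cell cannot be told apart. No marker of these lists was at 0 in all 6 libraries.

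Sdf2l1, a chaperone, Edem1, a degradation factor, and Wfs1, an ER membrane protein, were higher in ApoE aorta than in CKD and than in Ctrl aorta under each of the 4 scalings tried. With the FPKM as deposited more chaperone and degradation genes were higher in ApoE, and 1 gene was called between CKD and Ctrl. A call is a Benjamini-Hochberg adjusted p below 0.05 from limma over the 14074 genes that reached 1 FPKM in 2 or more libraries. Of the genes named first, Sdf2l1 kept both calls with any 1 library left out, and Edem1 only that for ApoE over CKD. Each call of Wfs1 was lost without at least 1 of the libraries, and its ApoE over Ctrl call also with no filter on low values. Fold changes are on the log2(FPKM + 1) scale, so that changes of genes with low values come out too small. Derl3, a derlin of ER-associated degradation, did not reach that level (0.567 and 0.338 FPKM in ApoE, 0.237 and 0.208 FPKM in CKD, 0.362 and 0.365 FPKM in Ctrl), which leaves 35 tested. For ApoE over Ctrl, 12 of the 35 were higher and 1 was lower, against a background of 44.1% of all genes called in either direction, 19.8% higher and 24.3% lower. The members' shares were 34.3% higher and 2.86% lower, and their median log2 fold change was 0.32, against -0.07 over all genes tested.

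For ApoE over CKD, 14 of the 35 were higher and 1 was lower, where the background was 39.7% of all genes called, 18.5% higher and 21.2% lower. The median over the members was 0.34 and over all genes -0.04. For CKD over Ctrl, Asns was the 1 gene called, and it was higher. The background there was 5.44% of all genes, 2.23% higher and 3.21% lower, and at an unadjusted p below 0.05 limma gave 9 of the 35. The median over the members was -0.15, or 0.034 without CKD 1, and over all genes -0.03. The 3 comparisons share libraries pairwise, so that each is given with its own values. Leaving out 1 library at a time moved the ApoE over Ctrl count of 13 to 5 without ApoE 1, 4 without ApoE 2, 17 without either CKD library, 1 without Ctrl 1 and 3 without Ctrl 2. The ApoE over CKD count of 15 moved to 9 without ApoE 2. The CKD over Ctrl count of 1 went to 6 without CKD 2 and to 0 without any 1 of the other libraries.

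The ApoE over Ctrl counts depend on how the libraries are scaled. Summed over all genes, FPKM came to 384070 and 398280 in ApoE, 385680 and 342090 in CKD and 313050 and 328870 in Ctrl. Scaled to an equal sum, an alternative chosen after seeing the data, 4 members were higher and 4 lower for ApoE over Ctrl, 2 were higher for CKD over Ctrl, and 10 were higher and 1 lower for ApoE over CKD. This scaling moved the median of all genes for ApoE over Ctrl to -0.30, with 1927 higher and 4751 lower in place of 2781 and 3427, and that of the members to 0.04. The 4 higher members were Sdf2l1, Asns, Edem1 and Wfs1, and the 4 lower ones Herpud1, Ppp1r15a, Dnajc3 and Ern1. The calls lost were those of Calr, Pdia6, Dnajb11, Creld2, Hyou1, Syvn1, Derl2 and Os9 for ApoE over Ctrl, and of Hspa5, Calr, Canx and Sec61b for ApoE over CKD, while Sesn2 joined Asns for CKD over Ctrl. Scaled without the mitochondrially encoded and the 50 most abundant genes, 9 members were higher and 2 lower for ApoE over Ctrl, without Calr, Creld2 and Hyou1 and with Ppp1r15a lower, and 13 were higher and 2 lower for ApoE over CKD. With median-ratio factors 14 were higher and 1 lower for ApoE over Ctrl.

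**Figure D1:**
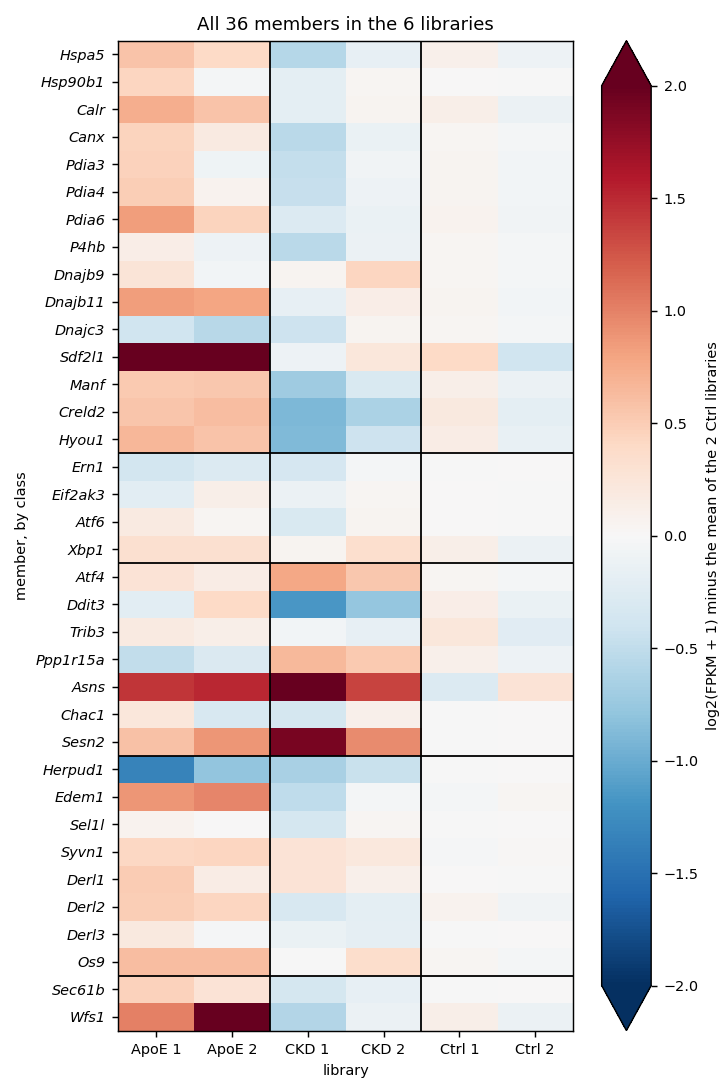
Level of each of the 36 genes in the 6 libraries, as log2(FPKM + 1) with FPKM scaled as deposited, minus the mean of the 2 Ctrl libraries, with horizontal lines between the 5 classes and the colour scale ending at 2 on either side. Most chaperones and Edem1, Os9 and Wfs1 are red in both ApoE libraries, Sdf2l1 beyond the scale. Several of them are blue in CKD 1 and paler in CKD 2, and Herpud1 is blue in both ApoE and both CKD libraries.

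Promoter sequences of the genes that mark the 2 arms are shown here because the arms are known to act through different DNA elements. RefSeq windows on GRCm38.p6, 250 bases before to 50 after the transcription start, were available for 32 of the 36 genes (all but Manf, Hyou1, Atf6 and Derl1). Both strands were searched for the ER stress element ERSE (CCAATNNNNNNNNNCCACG), ERSE-II (ATTGG, 1 base of any kind, then CCACG), the unfolded protein response element UPRE (TGACGTGG or TGACGTGA) and the C/EBP-ATF element CARE (TGATGNAA). No match overlapped another. The stretches below run from 180 bases before to 30 after the start, on the strand of the gene, and capitals mark the fixed letters of a match. Hspa5 (chr2:34771910-34772119, plus strand) holds a UPRE and an ERSE, and Calr (chr8:84846902-84847111, minus strand) an ERSE on the opposite strand. Sdf2l1 (chr16:17132354-17132563, minus strand), which had the highest fold change of the chaperones, holds no match. Dnajb11 (chr16:22857665-22857874, plus strand) and Herpud1 (chr8:94386249-94386458, plus strand) are the 2 members with ERSE-II, the first higher and the second lower in ApoE than in Ctrl. Asns (chr6:7693180-7693389, minus strand) holds a CARE.
Hspa5: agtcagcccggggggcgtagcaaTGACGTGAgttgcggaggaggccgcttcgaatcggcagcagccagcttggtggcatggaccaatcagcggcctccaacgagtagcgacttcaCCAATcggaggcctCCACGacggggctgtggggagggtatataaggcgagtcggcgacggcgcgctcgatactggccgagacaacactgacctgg
Calr: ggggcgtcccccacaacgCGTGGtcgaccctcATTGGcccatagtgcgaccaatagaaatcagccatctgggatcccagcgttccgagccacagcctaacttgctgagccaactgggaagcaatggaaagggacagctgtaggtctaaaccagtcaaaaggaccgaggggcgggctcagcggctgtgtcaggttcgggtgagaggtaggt
Sdf2l1: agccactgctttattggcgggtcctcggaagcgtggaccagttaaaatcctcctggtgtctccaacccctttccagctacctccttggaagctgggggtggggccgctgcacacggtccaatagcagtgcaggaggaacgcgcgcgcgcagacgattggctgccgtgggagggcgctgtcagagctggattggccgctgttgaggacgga
Dnajb11: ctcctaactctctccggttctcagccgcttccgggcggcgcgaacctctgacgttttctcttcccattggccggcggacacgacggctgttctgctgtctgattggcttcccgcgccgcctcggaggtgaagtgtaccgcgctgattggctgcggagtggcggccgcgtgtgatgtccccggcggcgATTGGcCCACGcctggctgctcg
Herpud1: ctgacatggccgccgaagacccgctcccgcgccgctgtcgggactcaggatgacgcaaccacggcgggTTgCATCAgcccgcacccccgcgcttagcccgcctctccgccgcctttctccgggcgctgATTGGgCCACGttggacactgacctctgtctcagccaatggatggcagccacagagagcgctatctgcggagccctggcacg
Asns: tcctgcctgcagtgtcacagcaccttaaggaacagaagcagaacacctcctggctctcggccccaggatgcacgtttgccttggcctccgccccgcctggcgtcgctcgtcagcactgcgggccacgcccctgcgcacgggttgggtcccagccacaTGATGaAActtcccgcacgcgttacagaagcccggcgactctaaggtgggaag

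ERSE was present in windows of 9 of the 32 genes (28.1%), against 0.119% of 32851 RefSeq promoter windows of the same length. The genes were listed as members of this response and the motifs as its known elements. A higher share among members was thus built into the choice and is no result of these data. Member shares are counted by gene and the others by window. The 9 genes were Hspa5, Hsp90b1 with a match on each strand, Calr, Canx, Pdia6, Dnajc3, Creld2, Syvn1 and Derl3. Of the 8 that were tested, 4 (50%) were called higher and none lower for ApoE over Ctrl, 5 (62.5%) higher and none lower for ApoE over CKD, and none for CKD over Ctrl. Over all genes, 19.8% were higher for ApoE over Ctrl and 18.5% for ApoE over CKD. ERSE-II stood in 2 of 32 windows (6.25%), Dnajb11 and Herpud1, against 0.0365% of all windows. UPRE stood in 1 window (3.12%), that of Hspa5, against 1.12%. CARE stood in 4 windows (12.5%), those of Asns, Chac1, Herpud1 and Trib3, against 3.97%. Of the 18 genes with none of the 4 motifs in their windows, 5 were called higher and none lower for ApoE over Ctrl. For ApoE over CKD 6 were called higher and 1 lower, Ppp1r15a. In either direction these calls came to 27.8% and 38.9% of the 18, against 44.1% and 39.7% of all genes. The 50% and 62.5% of the tested ERSE genes stand against the same 44.1% and 39.7%. By higher calls alone, the 5 and 6 of 18 stand against 19.8% and 18.5% of all genes. A difference in calls by motif was not tested. A match describes these letters and does not show that a factor binds there.

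**Figure D2:**
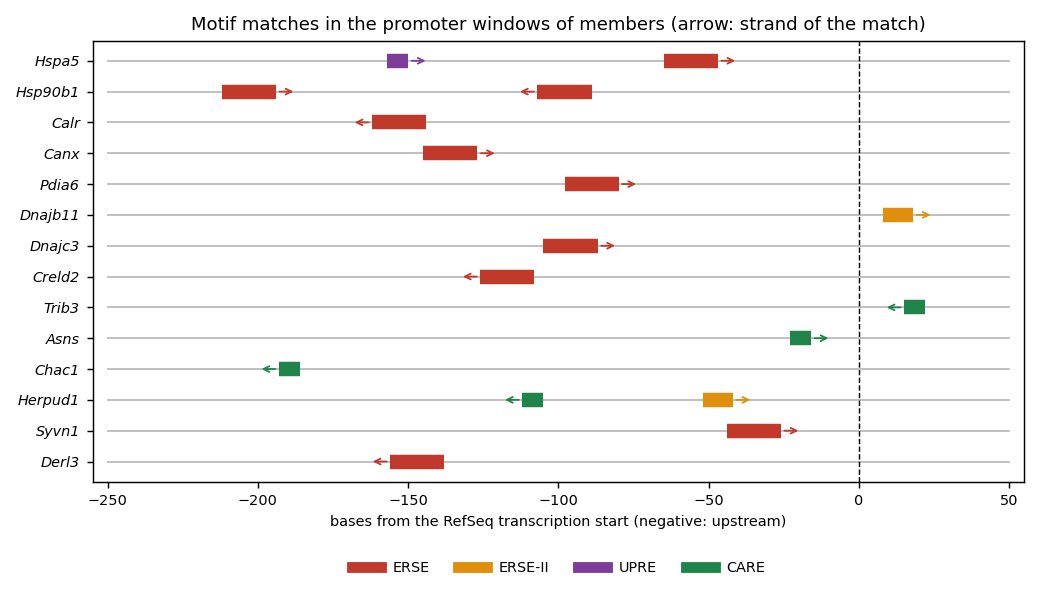
Motif matches in the windows of the 14 members that hold one, by distance in bases from the RefSeq transcription start (dashed line), with each box coloured by motif and an arrow for its strand. Boxes of the 9 ERSE genes lie upstream of the start, whereas the ERSE-II box of Dnajb11 and the CARE box of Trib3 lie just downstream.

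Among the 15 ER chaperones and folding enzymes, 6 were higher and none lower in ApoE than in Ctrl, 9 were higher and none lower in ApoE than in CKD, and none was called for CKD over Ctrl, where limma gave 3 at an unadjusted p below 0.05. Calls came to 40% for ApoE over Ctrl and 60% for ApoE over CKD, against 44.1% and 39.7% of all genes in either direction. Over all genes, 19.8% were higher for ApoE over Ctrl and 18.5% for ApoE over CKD. The 6 became 1 without Ctrl 1 or Ctrl 2, 2 without ApoE 1, 3 without ApoE 2, 2 with the replicate block, 3 scaled without the mitochondrial and most abundant genes, and 1, with 1 lower, at an equal sum of FPKM. The 9 became 5 without either ApoE library and 6 without either Ctrl library or at an equal sum. Their median log2 fold changes were 0.48, 0.72 and -0.27. Summed over the 15 genes, the level was 1689 and 1420 FPKM in ApoE libraries, 875 and 1121 FPKM in CKD libraries and 1236 and 1115 FPKM in Ctrl libraries. Both ApoE sums of FPKM lay above the other 4, but as a share of all FPKM the order changed, at 0.440% and 0.356% in ApoE, 0.227% and 0.328% in CKD and 0.395% and 0.339% in Ctrl. ApoE and Ctrl overlap on that scale, and both CKD libraries lie below both Ctrl libraries. Macrophage markers were higher and smooth muscle markers lower in the same ApoE libraries, at the levels given above, and their part in the chaperone result was not tested.

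Hspa5 (ENSMUSG00000026864, chr2:34771970-34777547 on GRCm38), the Hsp70 of the ER and master regulator of the sensors, stood at 233 and 207 FPKM in ApoE, 105 and 139.8 FPKM in CKD and 168.5 and 146 FPKM in Ctrl. Both ApoE libraries lay above all others, and both CKD libraries lay below both Ctrl libraries. For ApoE over CKD its log2 fold change was 0.85 (SE 0.20, limma adjusted p = 0.021), and for ApoE over Ctrl it was 0.48 (SE 0.20, adjusted p = 0.101), which was not called. The first call was lost, at an adjusted p of up to 0.101, without either ApoE or either Ctrl library. Hsp90b1, the ER form of Hsp90, had 92.2 and 66.5 FPKM in ApoE, 59.4 and 69.8 FPKM in CKD and 68.8 and 67.5 FPKM in Ctrl. The 3 groups overlapped, and no comparison called it. Its exons share 15.7% of their bases with other annotated genes, so that its value is less certain.

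The lectin chaperones Calr and Canx, which hold newly made glycoproteins until they fold, were both among the higher genes in ApoE. Calr (chr8:84841850-84846934), the most abundant of the 36 genes, had 320.2 and 288 FPKM in ApoE, 168 and 200.5 FPKM in CKD and 210.4 and 177 FPKM in Ctrl. ApoE lay above both other groups, which overlapped with each other. Its log2 fold change was 0.65 for ApoE over Ctrl (SE 0.19, limma adjusted p = 0.0356) and 0.72 for ApoE over CKD (SE 0.19, adjusted p = 0.0279). Canx had 97.6 and 80.5 FPKM in ApoE, 48.6 and 64.8 FPKM in CKD and 73.0 and 69.1 FPKM in Ctrl, so that none of the 3 groups overlapped. It was called for ApoE over CKD at 0.65 (SE 0.20, adjusted p = 0.0447) and not for ApoE over Ctrl at 0.32 (adjusted p = 0.239). These calls were lost without either ApoE or either Ctrl library, with adjusted p-values of up to 0.232 for Calr and 0.184 for Canx, and the 2 ApoE over CKD calls also without CKD 1.

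Of the protein disulfide isomerases, which form and reshuffle disulfide bonds, Pdia6 was called and Pdia3, Pdia4 and P4hb were not. Pdia6, known to attenuate IRE1 signalling, had 109 and 83.2 FPKM in ApoE, 50.6 and 55.5 FPKM in CKD and 64.1 and 58.35 FPKM in Ctrl. ApoE was highest and CKD lowest, with no overlap. Its log2 fold change was 0.63 for ApoE over Ctrl (SE 0.18, limma adjusted p = 0.0359) and 0.84 for ApoE over CKD (SE 0.18, adjusted p = 0.0162). The ApoE over Ctrl call was lost without ApoE 1, Ctrl 1 or Ctrl 2 (adjusted p up to 0.192), and the ApoE over CKD call without ApoE 1 (0.07). P4hb, which is also the beta subunit of collagen prolyl 4-hydroxylase, had 252 and 213.5 FPKM in ApoE, 157 and 212 FPKM in CKD and 235 and 225 FPKM in Ctrl. Its ApoE and Ctrl libraries overlapped, at a log2 fold change of 0.01 (adjusted p = 0.971). Pdia3 spanned 125 to 241.5 FPKM over the 6 libraries and Pdia4 32.8 to 64.5 FPKM, both lowest in CKD 1 and highest in ApoE 1.

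The J-domain cochaperones, which recruit Hspa5 to its substrates, differed among themselves. Dnajb11 (chr16:22857845-22879634), which binds unfolded chains, had 42.5 and 41.0 FPKM in ApoE, 20.6 and 25.8 FPKM in CKD and 24.4 and 22.3 FPKM in Ctrl. ApoE stood apart from the other 2 groups, which overlapped. In log2 terms it was 0.81 higher for ApoE over Ctrl (SE 0.15, limma adjusted p = 0.00857) and 0.83 for ApoE over CKD (SE 0.15, adjusted p = 0.00925). The first call was lost without Ctrl 1 or Ctrl 2 (adjusted p up to 0.0701), and the second without ApoE 2 (0.0505). Dnajb9, a feedback repressor of IRE1, ranged from 21.1 to 29.9 FPKM over the 6 libraries with its maximum in CKD 2 and was not called. Dnajc3, an inhibitor of PERK, had 42.1 and 37.7 FPKM in ApoE, 41.5 and 57.9 FPKM in CKD and 57.0 and 54.1 FPKM in Ctrl. It was the 1 chaperone with a negative fold change for ApoE over Ctrl (-0.47, SE 0.19, adjusted p = 0.0958) and was not called, whereas at an equal sum of FPKM it was called lower at -0.75 (adjusted p = 0.045). For ApoE over CKD the log2 fold change of Dnajc3 was -0.29 (SE 0.19), not called, and it was -0.53 without CKD 1.

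Sdf2l1 (ENSMUSG00000022769, chr16:17130138-17132383), an ER-resident partner of Dnajb11 in the Hspa5 cycle, had the largest log2 fold changes of the 35 tested genes in both ApoE comparisons. It stood at 75.2 and 75.5 FPKM in ApoE, 9.52 and 12.3 FPKM in CKD and 13.9 and 7.57 FPKM in Ctrl. In reads these values were 1327 and 1244 in ApoE, 156 and 197 in CKD and 257 and 127 in Ctrl. The 2 ApoE libraries lay close together and far above all others, and the CKD values fell between the 2 Ctrl values. Fitted log2 fold changes were 2.75 for ApoE over Ctrl (SE 0.28, limma adjusted p = 0.00107), 2.69 for ApoE over CKD (SE 0.28, adjusted p = 0.00172) and 0.06 for CKD over Ctrl (adjusted p = 0.897). With any 1 library left out, the adjusted p was at most 0.0135 for ApoE over Ctrl and 0.0204 for ApoE over CKD.

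Creld2, Hyou1 and Manf shared 1 order, with ApoE highest, Ctrl between and CKD lowest, and no overlap between any groups. Creld2, an ER stress-inducible factor with disulfide isomerase activity, had 47.0 and 49.0 FPKM in ApoE, 16.6 and 20.0 FPKM in CKD and 36.6 and 27.5 FPKM in Ctrl. Hyou1, the large Hsp70-like nucleotide exchange factor of Hspa5, had 22.3 and 20.9 FPKM in ApoE, 6.91 and 10.01 FPKM in CKD and 15.2 and 12.2 FPKM in Ctrl. Manf, an ER-retained neurotrophic factor that stabilises Hspa5 with its clients, had 23.3 and 23.7 FPKM in ApoE, 9.37 and 12.7 FPKM in CKD and 17.4 and 14.6 FPKM in Ctrl. Each ApoE library lay well above each CKD library in the 3 genes. Manf shares 9.25% of its exon bases with other genes, which the counting could have split. The log2 fold change for ApoE over CKD was 1.35 for Creld2 (SE 0.18, limma adjusted p = 0.00365), 1.27 for Hyou1 (SE 0.20, adjusted p = 0.00547) and 1.04 for Manf (SE 0.17, adjusted p = 0.00688). With any 1 library left out these calls held, at an adjusted p of at most 0.0323, 0.0372 and 0.0479 in the same order.

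Against Ctrl, the same 3 genes lay nearer the threshold. For ApoE over Ctrl, Creld2 was called at 0.58 (SE 0.18, limma adjusted p = 0.0453) and Hyou1 at 0.62 (SE 0.20, adjusted p = 0.0457), whereas Manf, at 0.53, was not (SE 0.17, adjusted p = 0.0513). Without either ApoE or either Ctrl library the Creld2 and Hyou1 calls were lost, with adjusted p-values of up to 0.262 and 0.219. For CKD over Ctrl the log2 fold changes were -0.77 for Creld2 (adjusted p = 0.0651), -0.65 for Hyou1 (0.0979) and -0.51 for Manf (0.121), none of them called. Without CKD 2 all 3 were called, with log2 fold changes of -0.89, -0.89 and -0.71 and adjusted p-values of 0.0462, 0.0345 and 0.0414.

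**Figure D3:**
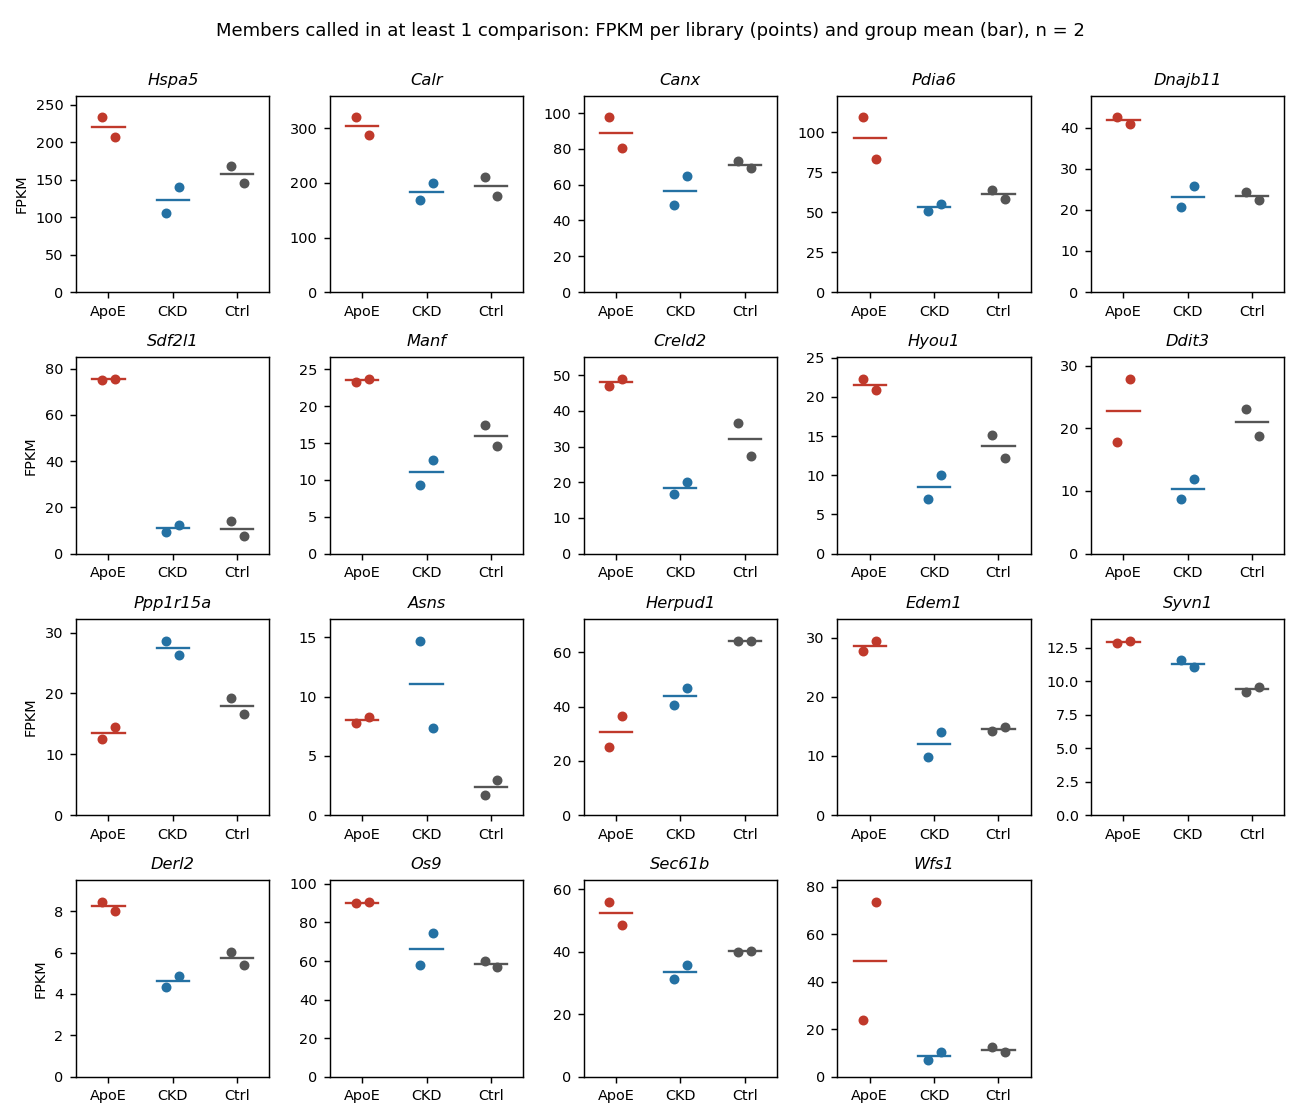
FPKM of the 19 genes called in at least 1 comparison, with a point per library, a bar at the mean of the 2 libraries of a group, and a y axis from 0 in each panel. Sdf2l1 and Edem1 separate ApoE from both other groups, Creld2, Hyou1 and Manf order the groups as ApoE, Ctrl and CKD, and Ppp1r15a is highest in CKD.

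The 2 libraries of a group often differed in the same direction across the chaperones. CKD 2 was above CKD 1 in 15 of 15 chaperones, where 54.2% of all genes tested were, and Ctrl 1 was above Ctrl 2 in 15 of 15, where 49.2% of all genes were. ApoE 1 was above ApoE 2 in 12 of 15, where 66.1% of all genes were. CKD 1, the lower CKD library for the chaperones, was also the one with more adipocyte signal, with a sum over 8 white adipocyte markers of 3257 FPKM in CKD 1 and 1115 FPKM in CKD 2. These sums were 1490 and 1681 FPKM in ApoE, against 195 and 457 FPKM in Ctrl. Of the 8 markers, 6 were called higher for ApoE over Ctrl and 1 for CKD over Ctrl. CKD 1 also had the lower smooth muscle sum of the pair, 3436 FPKM against 5954 FPKM in CKD 2. Ctrl 2, the lower Ctrl library for the chaperones, had the higher sums of T cell markers, 99.4 FPKM against 6.46 FPKM in Ctrl 1, and of B cell markers, 20.7 against 4.27 FPKM. The part of these differences in the chaperone values was not tested. The chaperone median for CKD over Ctrl was -0.10 without CKD 1 and -0.47 without CKD 2.

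With FPKM as deposited, the mRNAs of the sensors themselves and of Xbp1 were not called in any comparison, and limma gave none of the 4 at an unadjusted p below 0.05 in any of the 3. Xbp1, the transcription factor whose mRNA IRE1 splices, had 64.4 and 64.1 FPKM in ApoE, 53.5 and 65.3 FPKM in CKD and 55.8 and 47.2 FPKM in Ctrl. ApoE lay above Ctrl, and CKD overlapped both. Its log2 fold change was 0.32 for ApoE over Ctrl (SE 0.17, limma adjusted p = 0.174). Gene-level values do not show splicing. Atf6 had 9.74 and 8.77 FPKM in ApoE, 6.69 and 8.90 FPKM in CKD and 8.53 and 8.47 FPKM in Ctrl, at 0.11 for ApoE over Ctrl (adjusted p = 0.6). Ern1, which encodes IRE1, ranged from 4.97 to 6.66 FPKM and Eif2ak3, which encodes PERK, from 4.55 to 6.03 FPKM over the 6 libraries. The Ern1 values in ApoE were below those in Ctrl by 0.32 on the log2 scale (-0.32, SE 0.14, adjusted p = 0.115), and at an equal sum of FPKM Ern1 was called lower at -0.56 (adjusted p = 0.041).

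The 7 genes on the ATF4 and CHOP side did not move together. For ApoE over Ctrl 1 was higher, for CKD over Ctrl 1 was higher and for ApoE over CKD 1 was higher and 1 lower. Calls in either direction came to 14.3%, 14.3% and 28.6%, against 44.1%, 5.44% and 39.7% of all genes. The medians were 0.15, 0.59 and -0.34 in the same order. The first of these medians was -0.044 without Ctrl 2 and -0.069 at an equal sum of FPKM, and the third was -0.15 without CKD 1 and -0.56 without CKD 2. Atf4, the transcription factor translated when PERK or another eIF2 kinase is active, had 104 and 95.7 FPKM in ApoE, 147 and 126 FPKM in CKD and 87.8 and 83.9 FPKM in Ctrl. CKD was highest and Ctrl lowest, with no overlap. The log2 fold change was 0.66 for CKD over Ctrl (SE 0.16, limma adjusted p = 0.0685) and -0.44 for ApoE over CKD (SE 0.16, adjusted p = 0.0742), neither of them called. Without CKD 2 the CKD over Ctrl value was 0.77 and was called (adjusted p = 0.0321).

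Ddit3 and Ppp1r15a, both known targets of ATF4, had opposite orders in CKD and ApoE aorta. Ddit3, the transcription factor CHOP, had 17.8 and 27.9 FPKM in ApoE, 8.72 and 11.8 FPKM in CKD and 23.1 and 18.8 FPKM in Ctrl. CKD lay below both other groups, which overlapped. Ppp1r15a (GADD34), the phosphatase subunit that reverses eIF2 phosphorylation, had 12.5 and 14.5 FPKM in ApoE, 28.7 and 26.2 FPKM in CKD and 19.2 and 16.7 FPKM in Ctrl. CKD was highest and ApoE lowest, with no overlap. For ApoE over CKD the log2 fold change was 1.06 for Ddit3 (SE 0.26, limma adjusted p = 0.0219) and -0.98 for Ppp1r15a (SE 0.14, adjusted p = 0.00453). The Ppp1r15a call held with any 1 library left out (adjusted p at most 0.0288), and the Ddit3 call was lost without ApoE 2 or CKD 1 (up to 0.0954). Of 8 immediate early genes, which respond to tissue handling, 4 were lower and none higher in ApoE than in CKD, and likewise than in Ctrl, with sums of 354 and 236 FPKM in ApoE, 566 and 497 FPKM in CKD and 570 and 388 FPKM in Ctrl. In both comparisons calls came to 50% of these 8 genes, against 39.7% of all genes for ApoE over CKD and 44.1% for ApoE over Ctrl. The part of the immediate early genes in the Ppp1r15a values was not tested. For CKD over Ctrl the values were -0.97 for Ddit3 (adjusted p = 0.0778) and 0.59 for Ppp1r15a (0.0671), not called. Other annotated entries share 10.9% of the exon bases of Ddit3. The largest overlap, 105 bases, is with a second entry also named Ddit3 on the same strand. On the opposite strand, 68 bases are shared with Mars, and the library kit does not mark strand. Part of the Ddit3 signal is thus uncertain.

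Asns (ENSMUSG00000029752, chr6:7675169-7693254), which makes asparagine, was higher in both calcified groups than in Ctrl. It had 7.80 and 8.31 FPKM in ApoE, 14.7 and 7.34 FPKM in CKD and 1.71 and 2.97 FPKM in Ctrl, or 340 and 338 reads in ApoE, 596 and 290 in CKD and 78 and 123 in Ctrl. Every ApoE and CKD library lay above both Ctrl libraries, and CKD 1 was highest. The log2 fold change was 1.46 for ApoE over Ctrl (SE 0.33, limma adjusted p = 0.0162), 1.80 for CKD over Ctrl (SE 0.33, adjusted p = 0.0429) and -0.34 for ApoE over CKD (adjusted p = 0.452). The ApoE over Ctrl call was lost without Ctrl 1 or either ApoE library (adjusted p up to 0.0872). The CKD over Ctrl call held without CKD 2 and was lost without any 1 of the other 5 libraries (up to 0.232).

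Sesn2, a stress-induced inhibitor of the growth kinase complex mTORC1, had 4.19 and 5.36 FPKM in ApoE, 11.9 and 5.62 FPKM in CKD and 2.42 and 2.49 FPKM in Ctrl. As for Asns, CKD 1 was highest and Ctrl lowest, but here both CKD libraries lay above both ApoE libraries. The log2 fold change of 1.42 for CKD over Ctrl was not called (SE 0.31, limma adjusted p = 0.0578), and it was called at 1.90 without CKD 2 (adjusted p = 0.0206) and at 1.28 with an equal sum of FPKM (0.0434). CKD 1 was also the library with the highest sum of white adipocyte markers, as given above, and the part of that in the Asns and Sesn2 values was not tested. Trib3, a pseudokinase that restrains ATF4, stayed between 2.36 and 3.56 FPKM, and Chac1, which degrades glutathione, between 0.620 and 1.42 FPKM. Neither was called.

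ER-associated degradation, which extracts misfolded proteins for the proteasome, had 4 genes higher and 1 lower for ApoE over Ctrl among the 7 tested, 2 higher for ApoE over CKD, and none called for CKD over Ctrl, where limma gave 1 at an unadjusted p below 0.05. Calls in either direction came to 71.4% for ApoE over Ctrl and 28.6% for ApoE over CKD, against 44.1% and 39.7% of all genes. The 4 higher became 1 at an equal sum of FPKM, 1 with the replicate block, 1 without ApoE 1 or Ctrl 2 and 0 without ApoE 2 or Ctrl 1. Edem1, which trims mannose to mark misfolded glycoproteins, had 27.8 and 29.5 FPKM in ApoE, 9.90 and 14.1 FPKM in CKD and 14.2 and 14.9 FPKM in Ctrl. ApoE stood well above the rest. Edem1 was called at a log2 value of 0.93 for ApoE over Ctrl (SE 0.18, limma adjusted p = 0.00905) and 1.21 for ApoE over CKD (SE 0.18, adjusted p = 0.00465). The second call held with any 1 library left out, and the first was lost without Ctrl 1 or ApoE 2 (adjusted p up to 0.0611).

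Herpud1 (ENSMUSG00000031770, chr8:94386438-94395377), a membrane scaffold of the degradation complex and a classical stress-induced gene, went the other way. It had 25.0 and 36.6 FPKM in ApoE, 40.6 and 47.0 FPKM in CKD and 64.2 and 64.3 FPKM in Ctrl. The groups did not overlap, with Ctrl highest and ApoE lowest. The log2 fold change was -1.06 for ApoE over Ctrl (SE 0.21, limma adjusted p = 0.0102) and -0.55 for CKD over Ctrl (SE 0.21, adjusted p = 0.15), the second not called. The ApoE over Ctrl call was lost without Ctrl 1 or Ctrl 2 (adjusted p up to 0.0604).

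Syvn1, the membrane ubiquitin ligase HRD1, had 12.9 and 13.0 FPKM in ApoE, 11.6 and 11.1 FPKM in CKD and 9.21 and 9.59 FPKM in Ctrl. Its replicates were close, and the groups did not overlap. Derl2, a derlin of the extraction channel, had 8.43 and 8.01 FPKM in ApoE, 4.35 and 4.85 FPKM in CKD and 6.04 and 5.38 FPKM in Ctrl, again with no overlap. Os9, the lectin that passes glycoproteins to HRD1, had 89.9 and 90.5 FPKM in ApoE, 58.2 and 74.4 FPKM in CKD and 59.9 and 56.9 FPKM in Ctrl. ApoE lay above the other 2 groups, which overlapped. For ApoE over Ctrl the log2 fold changes were 0.42 for Syvn1 (SE 0.11, limma adjusted p = 0.0247), 0.46 for Derl2 (SE 0.12, adjusted p = 0.0278) and 0.62 for Os9 (SE 0.17, adjusted p = 0.03). Without either ApoE or either Ctrl library these 3 calls were lost, with adjusted p-values of up to 0.167, 0.178 and 0.169. Derl2 was also called for ApoE over CKD at 0.72 (SE 0.12, adjusted p = 0.00735), which held with any 1 library left out.

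Derl1, the most abundant derlin, had 62.6 and 48.8 FPKM in ApoE, 53.3 and 47.0 FPKM in CKD and 44.4 and 43.5 FPKM in Ctrl. ApoE lay above Ctrl, and its log2 fold change, 0.32, was not called (SE 0.17, limma adjusted p = 0.174). Sel1l, the adaptor of HRD1, stayed between 14.2 and 19.4 FPKM over the 6 libraries and was not called. Summed over the 8 degradation genes, the level was 246.5 and 245 FPKM in ApoE, 192 and 218 FPKM in CKD and 217 and 213 FPKM in Ctrl. The 2 ApoE sums of FPKM were above the others, but as a share of all FPKM both ApoE libraries, at 0.0642% and 0.0616%, lay below both Ctrl libraries, at 0.0692% and 0.0649%, with CKD at 0.0499% and 0.0636%.

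Wfs1 (chr5:36966104-36989205), wolframin, an ER membrane glycoprotein that restrains ATF6 and is linked to calcium handling, had 23.8 and 73.6 FPKM in ApoE, 7.23 and 10.4 FPKM in CKD and 12.4 and 10.4 FPKM in Ctrl. Both ApoE libraries lay above the rest, and the 2 differed widely, ApoE 2 being the higher. Its fold change, on the log2 scale, was 1.80 for ApoE over Ctrl (SE 0.50, limma adjusted p = 0.0314) and 2.15 for ApoE over CKD (SE 0.50, adjusted p = 0.0197). Without ApoE 2 the ApoE over Ctrl call was lost at a log2 fold change of 1.01, as it was without either Ctrl library (adjusted p up to 0.115), and the ApoE over CKD call was lost without CKD 1 (0.0823). ApoE 2 also had the higher sums of macrophage markers, 11122 against 6140 FPKM in ApoE 1, and of 10 plasma cell markers, 557 against 209 FPKM. Plasma cell sums were 45.8 to 56.0 FPKM in CKD and 42.3 to 66.5 FPKM in Ctrl, with Mzb1, a plasma cell chaperone, at 0 in CKD 2. Of the 9 plasma cell markers tested, 5 were higher for ApoE over Ctrl, and 6 were higher and 1 lower for ApoE over CKD. The lower one was Irf4, at 4.12 and 2.11 FPKM in ApoE, against 20.9 and 11.9 FPKM in CKD. The part of these cells in the Wfs1 values was not tested.

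Sec61b, a subunit of the channel through which new proteins enter the ER, had 55.9 and 48.7 FPKM in ApoE, 31.2 and 35.8 FPKM in CKD and 40.0 and 40.4 FPKM in Ctrl. The order was again ApoE, Ctrl and CKD, without overlap. It was called for ApoE over CKD at 0.63 (SE 0.15, limma adjusted p = 0.0205) and not for ApoE over Ctrl at 0.37 (adjusted p = 0.0902). Its call was lost without either ApoE or either Ctrl library (adjusted p up to 0.0931).

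**Figure D4:**
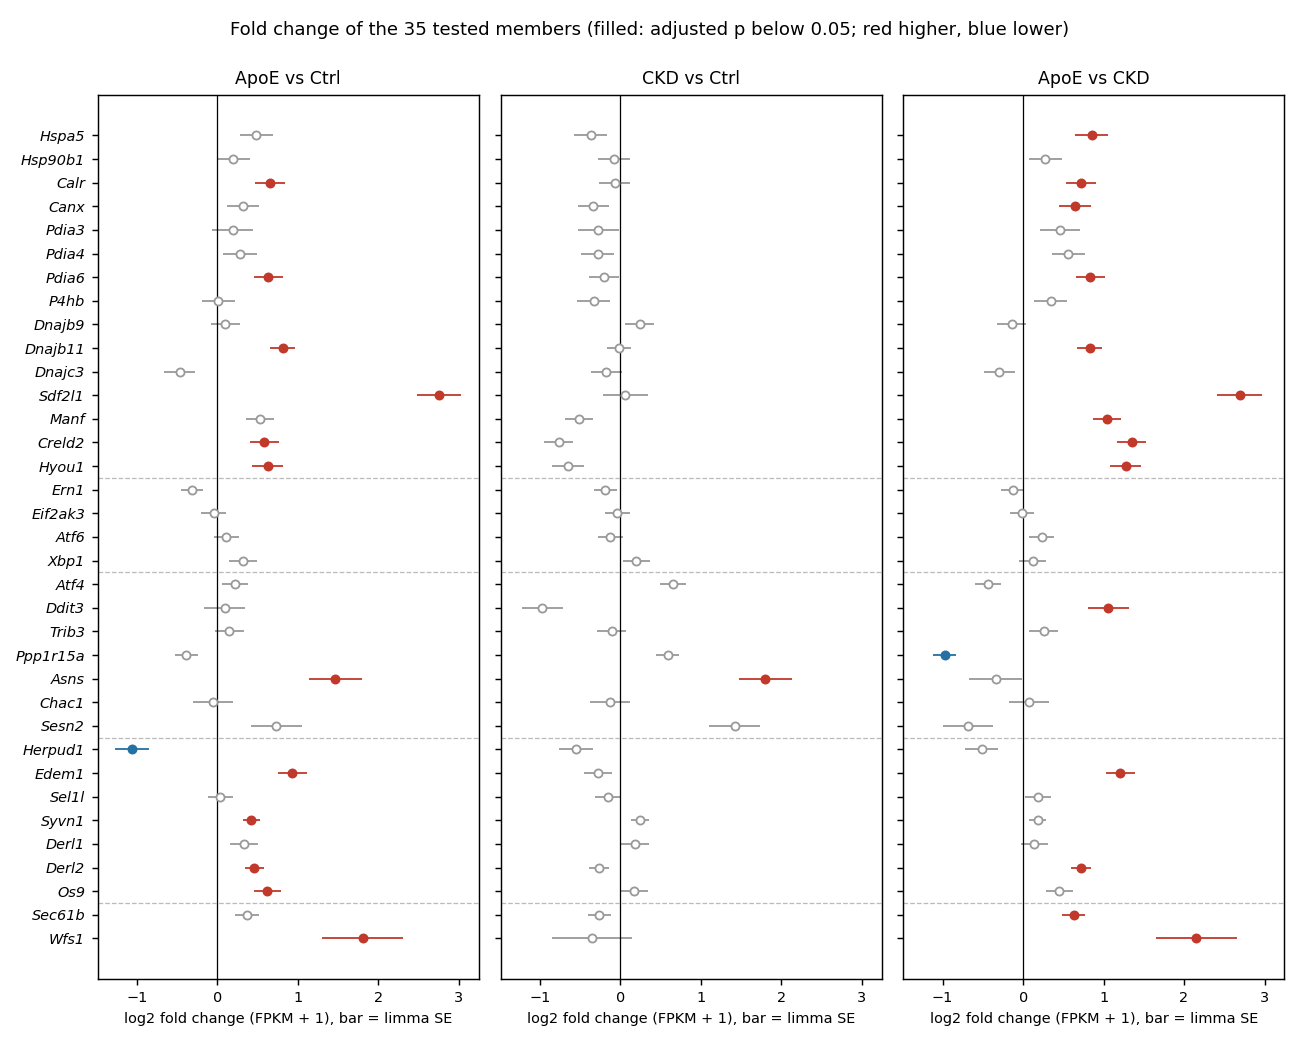
Log2 fold change of the 35 tested genes on the FPKM + 1 scale, with FPKM as deposited, in each of the 3 comparisons, with bars for the limma standard error and filled points where the adjusted p was below 0.05. For ApoE over Ctrl and ApoE over CKD the filled points lie mostly right of 0, with Herpud1 and Ppp1r15a as the exceptions on the left, and for CKD over Ctrl the 1 filled point is Asns.

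Other genes of the same compartments were called in both directions. Set beside the shares of all genes given above, calls in either direction came to 34.4% of the folding factors outside the list for ApoE over Ctrl and 21.9% for ApoE over CKD, with medians of -0.12 and 0.03. Among these 32 tested ER folding factors, 4 were higher and 7 lower for ApoE over Ctrl, 6 higher and 1 lower for ApoE over CKD, and none was called for CKD over Ctrl, where limma gave 9 at an unadjusted p below 0.05. Erp29, an ER escort protein, was higher at 14.9 and 14.95 FPKM in ApoE, against 7.09 and 7.01 FPKM in Ctrl (log2 fold change 0.98, SE 0.11, limma adjusted p = 0.00134). The disulfide oxidase Ero1lb was higher at 8.51 and 11.3 FPKM in ApoE, against 2.50 and 2.97 FPKM in Ctrl (1.54, SE 0.18, adjusted p = 0.00179). Fkbp10, a prolyl isomerase that acts on collagen, and Dnajc1 were lower in ApoE than in Ctrl, at -0.97 and -0.76 (adjusted p = 0.00575 and 0.0142). Erp29 and Ero1lb were also higher in ApoE than in CKD, at 1.07 and 1.70, and Dnajc1 was lower, at -0.53 (adjusted p = 0.00151, 0.00181 and 0.0488).

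Of 28 translocon, signal peptidase and glycan transfer genes, 4 were higher and 2 lower for ApoE over Ctrl, 6 higher and 3 lower for ApoE over CKD, and none was called for CKD over Ctrl (limma, 4 at an unadjusted p below 0.05). Calls came to 21.4% for ApoE over Ctrl and 32.1% for ApoE over CKD, below the 44.1% and 39.7% of all genes. The signal peptidase subunits Sec11c and Spcs2 were the leading higher ones for ApoE over Ctrl, at log2 fold changes of 0.78 and 0.61 (limma adjusted p = 0.00778 and 0.0161), and for ApoE over CKD, at 0.86 and 1.07 (0.0065 and 0.00314). Sec61a2, a second form of the channel subunit, was lower in ApoE than in Ctrl at -0.60 and than in CKD at -0.88 (0.026 and 0.00839). Srpr, of the signal recognition particle receptor, was lower in ApoE than in Ctrl (-0.51, 0.0443), and Stt3b, of the oligosaccharyltransferase, was lower in ApoE than in CKD (-0.49, 0.0419).

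Of 24 ER to Golgi transport genes, 1 was higher and 7 lower for ApoE over Ctrl, 1 higher and 2 lower for ApoE over CKD, and none was called for CKD over Ctrl (limma, 5 at an unadjusted p below 0.05). The shares called were 33.3% for ApoE over Ctrl and 12.5% for ApoE over CKD, against 44.1% and 39.7% of all genes. The cargo receptor subunit Mcfd2 was the higher one, at 0.55 over Ctrl and 0.81 over CKD (limma adjusted p = 0.0404 and 0.0134). The Golgi protein Golgb1 was lower, at -1.24 and -0.71 (0.00077 and 0.00583), the KDEL receptor Kdelr3 was lower than in Ctrl at -1.44 (0.00476), and the coat subunit Sec24d was lower than in CKD at -0.80 (0.0434).

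Of 21 other degradation genes, 1 was higher and 4 lower for ApoE over Ctrl, 1 was lower for CKD over Ctrl, and 3 were higher and 3 lower for ApoE over CKD. In the same order 23.8%, 4.76% and 28.6% were called, against 44.1%, 5.44% and 39.7% of all genes. Edem2, a mannosidase like Edem1, was higher in ApoE at 20.8 and 32.6 FPKM, against 12.1 and 11.6 FPKM in Ctrl (log2 fold change 1.07, SE 0.21, limma adjusted p = 0.0106), and it was higher than in CKD at 1.19 (0.0087). Fam8a1, an HRD1 cofactor, was lower in ApoE than in Ctrl at -1.22 and than in CKD at -0.96 (0.00305 and 0.00809), and the ubiquitin-conjugating enzyme Ube2j1 was lower than in Ctrl at -0.64 (0.0157). Sel1l3 was lower in CKD than in Ctrl at -1.31 and higher in ApoE than in CKD at 0.89 (0.0274 and 0.0114). Ufd1, a cofactor of the extracting ATPase, was lower in ApoE than in CKD at -0.74 (0.00913).

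Of 34 other ATF4 targets and amino acid genes, 6 were higher and 10 lower for ApoE over Ctrl, 2 were higher and 2 lower for CKD over Ctrl, and 4 were higher and 11 lower for ApoE over CKD. For CKD over Ctrl the calls came to 11.8%, against 5.44% of all genes. The 2 higher in CKD were Slc3a2, the heavy chain of amino acid transporters, and Gpt2, the mitochondrial alanine aminotransferase. Slc3a2 had 53.7 and 58.6 FPKM in ApoE, 52.5 and 53.1 FPKM in CKD and 24.5 and 23.3 FPKM in Ctrl, with log2 fold changes of 1.20 for ApoE over Ctrl and 1.11 for CKD over Ctrl (limma adjusted p = 0.0014 and 0.023). Both calcified groups stood well above Ctrl. Gpt2 had 7.52 and 8.25 FPKM in ApoE, 19.3 and 14.9 FPKM in CKD and 2.76 and 3.55 FPKM in Ctrl, with 1.10 and 2.12 (0.00453 and 0.0136).

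For ApoE over Ctrl 47.1% of these 34 genes were called, against 44.1% of all genes, and for ApoE over CKD 44.1%, against 39.7%. Vldlr, a lipoprotein receptor, was lower than in Ctrl in ApoE at -1.58 and in CKD at -0.82 (limma adjusted p = 0.000385 and 0.0274). The neutral amino acid transporter Slc1a4 was lower in ApoE, at -1.91 over Ctrl and -1.65 over CKD (0.000429 and 0.00112), and Aldh18a1, of proline synthesis, was lower in CKD than in Ctrl at -1.05 (0.0483). For ApoE over CKD, the transcription factors Atf3 and Cebpg were higher at 1.28 and 0.81 (0.0218 and 0.00397). Ddit4, a stress-induced brake on mTORC1, had 17.9 and 19.4 FPKM in ApoE, 207 and 119 FPKM in CKD and 43.2 and 70.7 FPKM in Ctrl, and it was lower in ApoE than in CKD at -3.01 (SE 0.34, adjusted p = 0.00211).

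Of 24 other regulators of the stress response, 1 was higher and 5 lower for ApoE over Ctrl, 1 was higher for CKD over Ctrl, and 1 was higher and 5 lower for ApoE over CKD. These were 25%, 4.17% and 25% of the list, where 44.1%, 5.44% and 39.7% of all genes were called. Bcl2l11 (BIM), a death gene that CHOP can raise, had 4.55 and 6.42 FPKM in ApoE, 1.50 and 1.93 FPKM in CKD and 1.08 and 0.930 FPKM in Ctrl. It was higher in ApoE than in Ctrl at 1.68 (SE 0.19, limma adjusted p = 0.00146) and than in CKD at 1.24 (0.00498). Map3k5, a kinase downstream of IRE1, was lower in ApoE, at -1.45 over Ctrl and -1.45 over CKD (0.000771 and 0.00119), and the ER-anchored factor Creb3l2 was lower than in Ctrl at -1.06 (0.00246). Eif2b2, a subunit of the exchange factor that phosphorylated eIF2 inhibits, was higher in CKD than in Ctrl at 0.73 and lower in ApoE than in CKD at -0.73 (0.0465 and 0.0112).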

How the data were processed

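Poly-T selected RNA of mouse aorta was measured in 6 libraries, 2 each for ApoE, CKD and Ctrl. The deposited files hold 1 value for each Ensembl gene, under a header that gives the sample name and no unit. The values were read here as FPKM because low values fall on steps that depend on gene length (95.2% to 95.8% of low values were whole reads to within 0.05 of a read). In 5 files IDs and values are stacked in 1 column. Bowtie2 2.2.3, HISAT2 2.1.0, TopHat2 and GRCm38 are named per the submitters' processing notes, and the counting tool is not given in the sources used here. The kit, per the labels' protocols, does not mark strand, so reads of overlapping genes cannot be separated.

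From the deposited FPKM, the 14074 genes that reached 1 FPKM in 2 or more libraries were taken as log2(FPKM + 1) into a group-means fit over the 6 libraries with limma 3.58.1 in R 4.3.3 (variance trend, robust spread, 3 residual degrees of freedom), with Benjamini-Hochberg adjustment over all genes tested and a threshold of 0.05. The code was tested on simulated data. Symbols, coordinates and exon overlaps came from GENCODE and promoter windows from RefSeq. The 2 libraries of a group were not copies: a chi-square per degree of freedom of their reads was 11.9, 14.8 and 6.07 in ApoE, CKD and Ctrl.

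The members, the other gene lists and the motifs were chosen with earlier results of these data known. Every called member is named. Of each class the 2 most abundant genes are also given per library, and of each other list at most 2 called genes in each direction and comparison, those with the smallest adjusted p. Alternatives were the pseudocount, the filter, the scaling, the spread model, the libraries in the fit, a replicate block and leaving out each library. A scaling to an equal sum of FPKM was added after seeing the data.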

Additional observations from a re-analysis of the deposited data

How the results depend on the processing

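The labels number the libraries 1 and 2 in each group. Deviations of same-numbered libraries correlated at -0.10 (ApoE and CKD), 0.05 (ApoE and Ctrl) and -0.23 (CKD and Ctrl). These values gave no sign that the numbers pair the samples, but they cannot exclude it, because other differences between the 2 libraries of a group can mask a shared batch. With the replicate block, 6, 0 and 13 members were called for ApoE over Ctrl, CKD over Ctrl and ApoE over CKD, where 13, 1 and 15 were called without it. The same counts were 6, 0 and 12 with no filter on low values. For CKD over Ctrl the count was also 0 with a pseudocount of 5 and with only the 4 libraries of the 2 groups. Scaled to an equal sum of FPKM, which was chosen after seeing the data, the counts were 8, 2 and 11, the ER chaperone medians 0.20 for ApoE over Ctrl and -0.45 for CKD over Ctrl, and the ATF4 and CHOP medians -0.069 and 0.42 in the same comparisons. Leaving out 1 library gave 1 to 17 members for ApoE over Ctrl, 0 to 6 for CKD over Ctrl and 9 to 19 for ApoE over CKD. It gave ER chaperone medians of -0.47 to -0.10 for CKD over Ctrl, and ATF4 and CHOP medians of -0.044 to 0.25 for ApoE over Ctrl and -0.56 to -0.15 for ApoE over CKD. No called member reversed under any of the 16 alternatives. Under all 16, the call of Sdf2l1 held for ApoE over Ctrl, and those of Creld2, Derl2, Edem1, Hyou1, Manf, Ppp1r15a and Sdf2l1 for ApoE over CKD. The cause of the other changes was not tested. Over all genes, the count of 766 for CKD over Ctrl was 46 with the replicate block, 1 with no filter, 3 with only the 4 libraries and 0 to 2366 with 1 library left out. The count of 6208 for ApoE over Ctrl ranged from 2992 to 7022 and that of 5592 for ApoE over CKD from 2559 to 4941 with 1 library left out. With 2 libraries a group, and a spread shared by the 3 groups, a library left alone in its group is assumed to vary like the others, and members not called may still differ.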

Other observations

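Collagen folding genes and cytosolic heat shock genes lie outside the unfolded protein response. Over all genes, 19.8% were higher and 24.3% lower for ApoE over Ctrl, 44.1% in all. Calls in either direction came to 66.7% of the collagen folding genes and 50% of the heat shock genes, the second near the share of all genes. For CKD over Ctrl 8.33% and 15% of these lists were called, against 5.44% of all genes. For ApoE over CKD the shares were 50% and 35%, against 39.7% of all genes. Of 12 collagen folding genes, 1 was higher and 7 were lower for ApoE over Ctrl, 1 was lower for CKD over Ctrl, and 3 were higher and 3 lower for ApoE over CKD. The prolyl hydroxylase subunit P4ha2 had 5.98 and 4.96 FPKM in ApoE, 10.7 and 13.6 FPKM in CKD and 20.4 and 18.4 FPKM in Ctrl, and it was lower in ApoE, at -1.66 over Ctrl and -1.02 over CKD (limma adjusted p = 0.000928 and 0.00583). P3h4, of the collagen lysyl hydroxylation complex, was also lower in ApoE, at -1.38 and -0.96 (0.00466 and 0.0174). P4ha1, the main catalytic subunit, was lower in CKD than in Ctrl at -1.51 (0.0351). P4ha3 was the 1 gene higher in ApoE than in Ctrl, at 1.71 (0.00187), and it was higher than in CKD at 1.35 (0.00506), as was the lysyl hydroxylase Plod1 at 0.74 (0.0173). Of 8 fibroblast markers, 5 were lower for ApoE over Ctrl, with sums of 689 to 1024 FPKM in ApoE, 1044 to 1561 FPKM in CKD and 1744 to 2022 FPKM in Ctrl, and their part in these values was not tested.

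Of 20 cytosolic and mitochondrial heat shock genes, 2 were higher and 8 lower for ApoE over Ctrl, 3 were lower for CKD over Ctrl, and 3 were higher and 4 lower for ApoE over CKD. The small heat shock protein Hspb1 had 92.4 and 114 FPKM in ApoE, 597 and 733 FPKM in CKD and 1319 and 899 FPKM in Ctrl, and it was lower in ApoE, at -3.40 over Ctrl and -2.68 over CKD (limma adjusted p = 0.000451 and 0.00139). Its relative Cryab was lower in ApoE than in Ctrl at -1.90 (0.00167). The mitochondrial chaperonin Hspd1 and the cochaperone Dnaja1 were higher in ApoE than in Ctrl, at 0.78 and 0.38 (0.0421 and 0.0436). In CKD the cochaperones Fkbp4 and Stip1 were lower than in Ctrl, at -1.38 and -1.17 (0.0262 and 0.0392). For ApoE over CKD, Chordc1 and Dnaja1 were higher at 0.78 and 0.45, and Dnajb4 was lower at -1.37 (0.00952, 0.0271 and 0.0131). The smooth muscle markers were also lower in the ApoE libraries, and their part in these values was not tested.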
